A study of Mus musculus with 6 samples.

Results

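Interferon response and nucleic acid sensing genes were examined in liver sinusoidal endothelial cells (LSECs), the fenestrated endothelium that lines the hepatic sinusoids, from mice with and without Txnip. The set was a list of 54 gene symbols defined by known function, with no measured value in its rule, although it was drawn up with earlier results of these data known. It was divided here by known role into 4 receptor genes, 8 kinase and transcription factor genes, 6 sensor and adaptor genes, 22 antiviral effector genes, 6 interferon-inducible GTPase genes, and 8 genes of ADP-ribosylation, ubiquitin and nuclear body proteins. Of the 23282 gene rows in the count tables, 53 belonged to the list. Rnf213 was not analysed here, 4 genes (Oas2, Oas3, Mx1 and Mx2) had too few counts to be tested, and 49 were tested.

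The 3 Txnip-/- libraries came from mice with a whole-body Txnip knockout on a C57BL/6J background, and the 3 WT libraries came from C57BL/6J mice that carried both Txnip alleles. The knockout was not restricted to the endothelium, so every other cell of the liver lacked Txnip as well. LSECs were purified with CD146 magnetic beads, and RNA was read from the 3′ end of each transcript (QuantSeq), so that counts do not grow with transcript length. In the paper's isolation method the selected LSECs went into culture in endothelial growth medium. Whether RNA for these libraries was taken before or after culture was not stated. Standard chow was the maintenance diet of the study, and its feeding experiments used liquid diets. The diet, age and sex of the mice behind these libraries were not given in the sources used here. Nor was it stated that the libraries of a genotype came from separate animals. The p-values therefore measure the spread between these libraries, which may be technical.

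Interferons are secreted antiviral cytokines. Type I interferon binds Ifnar1 and Ifnar2, type II interferon binds Ifngr1 and Ifngr2, and both receptor pairs signal through JAK kinases to STAT and IRF transcription factors, which switch on interferon-stimulated genes. Upstream of interferon stand the nucleic acid sensors, which recognise viral or misplaced cellular RNA and DNA and turn on interferon genes through adaptors and Irf3 or Irf7. Sinusoidal endothelium meets gut-derived microbial products in portal blood, and a low tonic level of this program is usual in many cells without infection.

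Interferon-stimulated genes are recognised by a short promoter element, the interferon-stimulated response element (ISRE), bound by the complex of STAT proteins with Irf9 and by other IRF factors. The ISRE was searched on both strands as GAAA, any 2 bases and GAAA again, of RefSeq promoters (GRCm38.p6) from 250 bases before to 50 bases after the start of transcription. Of the 44 listed genes with a promoter in the RefSeq table, 19 (43.2%) held a match, against 1079 of all 27025 genes (3.99%). Matches lay in all 5 GTPase promoters, 10 of 18 effector promoters, 2 of 3 sensor promoters, 2 of 8 kinase and transcription factor promoters, and none of the 4 receptor promoters or the 6 promoters of the last group. A letter match is a description and does not establish a bound site. The following windows show the element in genes whose values are described later, with the ISRE letters in capitals and each window read 5′ to 3′ on the strand of its gene.
Isg15, chr4:156200871-156200900, minus strand: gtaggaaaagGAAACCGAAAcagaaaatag
Ifit1, chr19:34640794-34640823, plus strand: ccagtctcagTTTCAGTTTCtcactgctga
Ifit3, chr19:34583363-34583392, plus strand: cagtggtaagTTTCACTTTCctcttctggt
Oas1a, chr5:120907520-120907549, minus strand: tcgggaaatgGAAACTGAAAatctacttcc
Rsad2, chr12:26456553-26456582, minus strand: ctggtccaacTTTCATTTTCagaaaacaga
Ifitm3, chr7:141010706-141010735, minus strand: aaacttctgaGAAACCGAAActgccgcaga
Ddx58, chr4:40239804-40239833, minus strand: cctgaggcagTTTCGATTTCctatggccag
Gbp2, chr3:142620594-142620623, plus strand: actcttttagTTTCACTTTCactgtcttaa
Gbp7, chr3:142530273-142530302, plus strand: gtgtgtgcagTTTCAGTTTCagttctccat
Irgm1, chr11:48871425-48871454, minus strand: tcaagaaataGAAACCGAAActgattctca

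The second element of the pathway, the interferon-gamma activated site (GAS), was searched as TTC, any 3 bases and GAA, a palindromic pattern that STAT dimers bind. It was present in 15 of the 44 promoters (34.1%), against 2582 of all 27025 (9.55%). Irf1, the classic early target of interferon gamma, held the following match, with the GAS letters in capitals.
Irf1, chr11:53769914-53769942, plus strand: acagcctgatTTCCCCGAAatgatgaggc

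The libraries held 9147764 to 10193952 counts each, and a count of 3, taken as the floor of detection, equalled 0.294 to 0.328 CPM (counts scaled to a common library size) for counting error only. Txnip itself was counted 269, 216 and 191 times in the knockout and 1901, 2019 and 1994 times in WT (log2 fold change -3.02, SE 0.14, adjusted p = 6.94e-10, edgeR quasi-likelihood test). WT replicate 3 stood apart from the other WT libraries in the share of its counts on the ribosomal RNA gene Rn45s, which was 17.8% against 10.03% and 9.68%, while the Txnip-/- libraries had 16.8% to 18.6%. The endothelial genes Pecam1 and Cdh5 were high in all 6 libraries, with Pecam1 at 885 CPM in Txnip-/- and 934 in WT on average and Cdh5 at 1069 and 1101. The summed level of 10 LSEC markers was 4992 to 5315 CPM in Txnip-/- and 5765 to 7365 in WT. The lowest of them, Clec4g, had 7.64 CPM in Txnip-/- and 8.40 in WT on average. Lyve1 weighed most in that sum, with 1475, 1642 and 1976 CPM in Txnip-/- and 3482, 3780 and 1520 in WT. All 10 estimates were below 0, and 5 had an unadjusted p under 0.05 (edgeR). By the test used below, 1 of the 10, Stab1, was called lower (log2 fold change -0.46, adjusted p = 0.00984, edgeR). Stab2 had an adjusted p of 0.0448 (edgeR), but its log2 fold change of -0.36 fell short of 1.3-fold. Markers of other cells differed too. The 13 Kupffer cell and macrophage markers summed to 309 to 346 CPM in Txnip-/- and 745 to 773 in WT, and 11 of the 12 that could be tested were called lower (Timd4 had 0 to 12 counts and was not tested). The 6 stellate cell markers summed to 34.8 to 42.1 CPM in Txnip-/- and 19.99 to 21.9 in WT, with Dcn higher (log2 fold change 0.99, adjusted p = 0.00497, edgeR). Hepatocyte markers summed to 35.2 to 50.4 and 35.2 to 37.9 CPM, dendritic cell markers to 11.2 to 17.2 and 15.7 to 19.7 CPM with Cd209a and Siglech at 0 in every library, cholangiocyte markers to 2.46 to 5.10 and 1.36 to 4.65 CPM, and neutrophil markers to 1.45 to 2.34 and 0.423 to 1.36 CPM. Of 8 lymphocyte markers, 6 had 0 counts in every library, and their sum stayed below 1 CPM. In bulk RNA, fewer cells of a type and less RNA per cell cannot be told apart.

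The interferon genes ranged from under 2 CPM to 783 CPM in these LSECs, and none of them passed the test for a genotype difference. A call required a change of over 1.3-fold with an adjusted p under 0.05. Among the 49 tested genes, 0 were called, where 1.44% of all 11583 tested genes were called (0.509% higher and 0.932% lower). The smallest adjusted p of any listed gene was 0.332 by edgeR, 0.382 by DESeq2 and 0.266 by limma-trend, and neither of the other tools called a gene. At an unadjusted p under 0.05 by edgeR, 2 genes were higher in Txnip-/- (Oas1a and Rsad2) and 2 were lower (Ifngr2 and Dhx58). These were 8.16% of the list, while 11.5% of all tested genes passed the same threshold (5.48% higher and 6.05% lower). DESeq2 placed 1 gene higher and 2 lower at that threshold, and limma-trend placed 2 higher and 2 lower. WT replicates 1 and 2 were also left out together, which leaves WT with its replicate 3 alone, assumed to vary like the Txnip-/- libraries. No listed gene was called in that fit, which is too small to bear on whether the genotypes differ.

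The fold changes were spread around 0. The estimate was above 0 for 23 genes and below 0 for 26, with a median log2 fold change of -0.04 and quartiles of -0.16 and 0.15. Over all tested genes the quartiles were -0.18 and 0.16, and 50% of the estimates were below 0. The estimate lay within 1.3-fold in either direction for 41 genes (83.7%), compared with 78.4% of all tested genes. The 3 libraries of each genotype did not overlap for 4 genes, of which Oas1a was higher in Txnip-/- (2.04% of the list, against 8.43% of all tested genes) and Ifngr2, Dhx58 and Ifitm2 were lower (6.12%, against 8.94%).

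**Figure D1:**
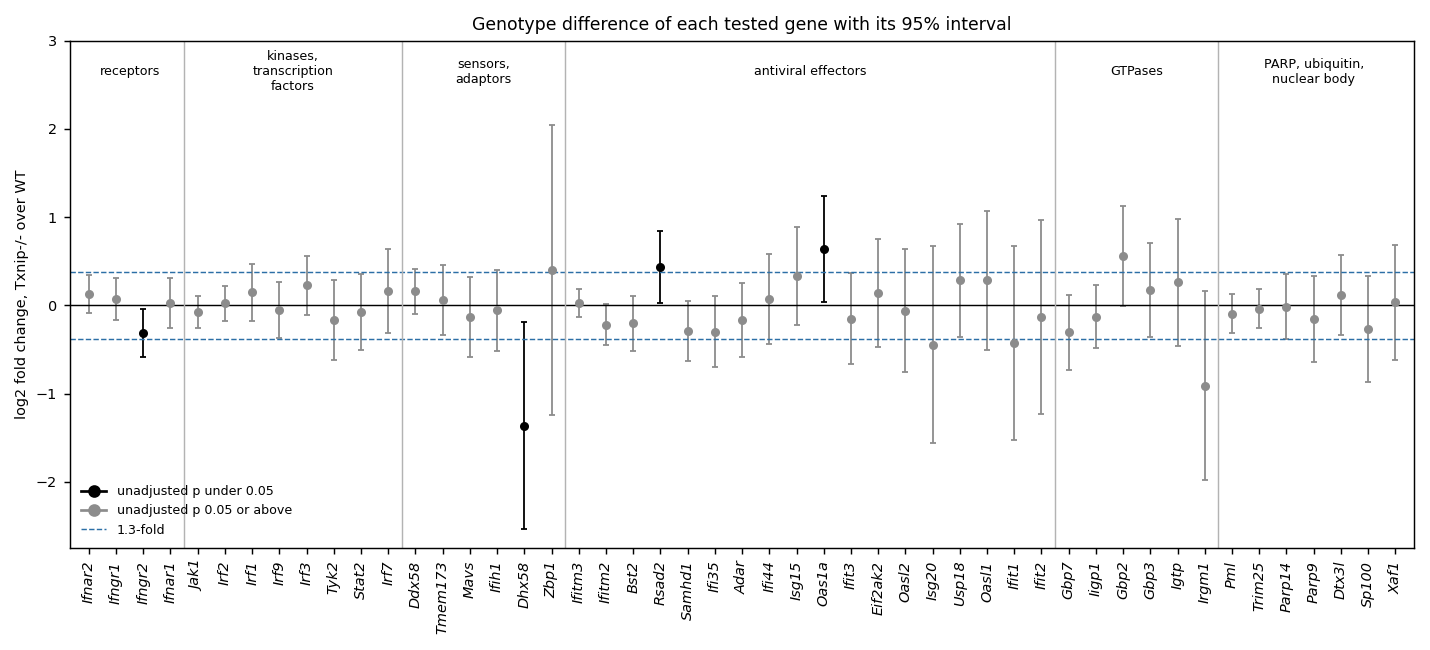
Log2 fold change of Txnip-/- over WT (vertical axis) for each of the 49 tested genes (horizontal axis, by role and by descending level), with bars for the 95% interval. Black points are the 4 genes with an unadjusted p under 0.05, dashed lines mark 1.3-fold, and 41 points lie between them.

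The intervals show how large a difference each gene could still hold. The 95% interval of the fold change lay within 2-fold in both directions for 40 of the 49 genes (81.6%, against 72.8% of all tested genes) and within 1.5-fold for 24 (49.0%, against 48.5%). For the 36 genes with a mean level of 10 CPM or more, the median half-width of the interval was 0.38 on the log2 scale, and 34 intervals lay within 2-fold. For the 13 genes under 10 CPM, the median half-width was 0.78 and 6 intervals lay within 2-fold. A 2-fold change in the more abundant genes was therefore outside nearly all intervals, the exceptions being Oas1a and Gbp2. Under 10 CPM, a 2-fold change in at least 1 direction lay inside the intervals of Zbp1, Isg20, Ifit1, Ifit2, Dhx58, Irgm1 and Oasl1.

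**Figure D2:**
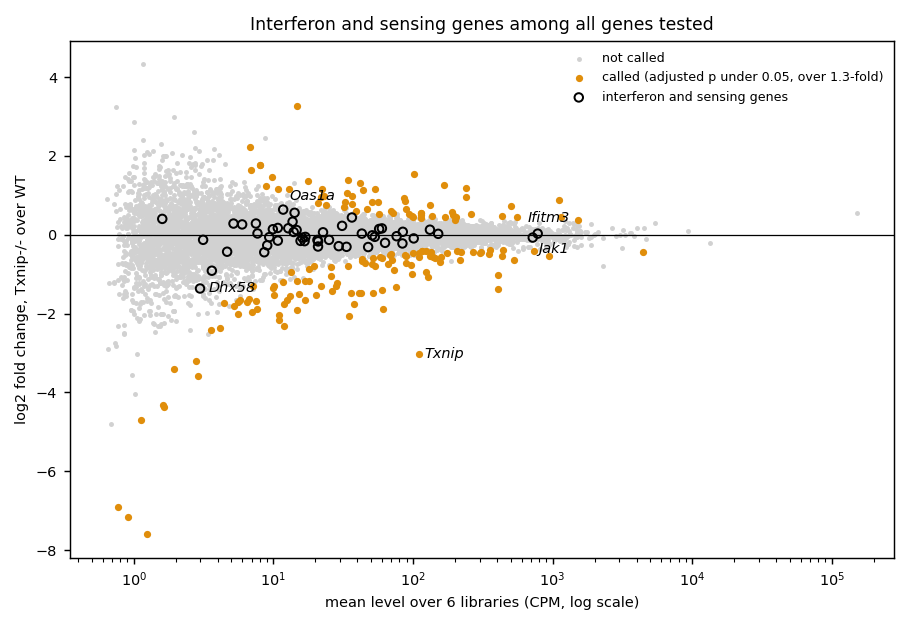
Log2 fold change (vertical axis) against the mean level over 6 libraries in CPM (horizontal axis, log scale) for all 11583 tested genes. Open circles are the 49 listed genes, none of which is among the 167 called genes in orange, and Txnip lies at -3.02.

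Summed over the 53 measured genes, the program took 3003, 3002 and 2946 CPM in the Txnip-/- libraries and 2952, 2978 and 3116 CPM in the WT libraries. The Txnip-/- values lay inside the WT range except the lowest, and their mean was 98.9% ± 1.09 of the WT mean (SD, n = 3), where the WT libraries themselves had an SD of 2.93%. Each role group overlapped between genotypes, with a Txnip-/- mean of 102% ± 6.94 for receptors, 97.6% ± 2.96 for kinases and transcription factors, 102% ± 11.6 for sensors and adaptors, 99.96% ± 3.25 for antiviral effectors, 96.1% ± 2.92 for GTPases and 96.1% ± 1.55 for the last group. Single genes carried these sums: Ifitm3 and Jak1 made up 50.2% of the whole, Ifitm3 69.1% of the effector sum and Jak1 67.8% of the kinase and transcription factor sum. Without them the Txnip-/- mean was 99.2% ± 1.41 of WT over 51 genes, 95.5% ± 0.579 for the other effectors (WT SD 8.45%) and 103% ± 3.17 for the other kinases and transcription factors (WT SD 6.45%; SD, n = 3). The macrophage marker sum of the same libraries was 42.5% ± 2.50 of the WT mean and the stellate marker sum 184% of it. Dcn made up most of the stellate sum, with means of 30.6 CPM in Txnip-/- and 15.4 in WT. Lrat, Reln and Rgs5 had higher means at low levels (1.41, 1.69 and 1.36 CPM against 0.292, 0.737 and 0.860), but the genotypes overlapped for each. Reln and Rgs5 had unadjusted p-values of 0.308 and 0.428 (edgeR), and Lrat had too few counts to be tested. Des was nearly equal (2.87 and 2.80 CPM) and Colec11 lower (0.788 and 1.01 CPM). The part of the other cell types in the interferon gene levels was not tested.

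**Figure D3:**
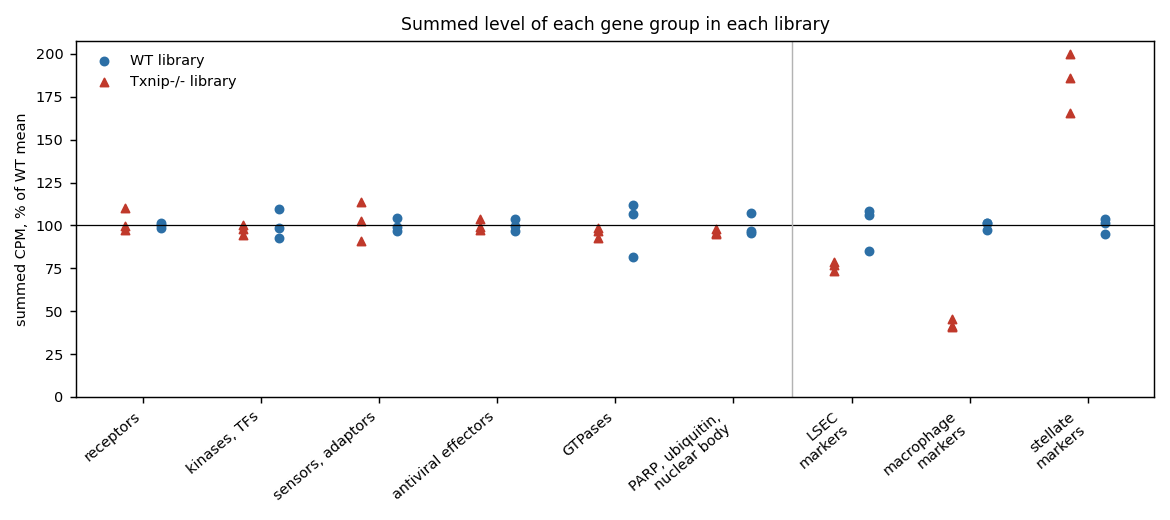
Summed CPM of each gene group in each library as a percentage of the WT mean (vertical axis, from 0), with blue circles for WT and red triangles for Txnip-/- libraries. The 6 interferon and sensing groups overlap between genotypes near 100%. In Txnip-/-, LSEC markers sit near 76.3%, macrophage markers near 42.5% and stellate markers near 184%. Most of the stellate sum is Dcn.

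**Figure D4:**
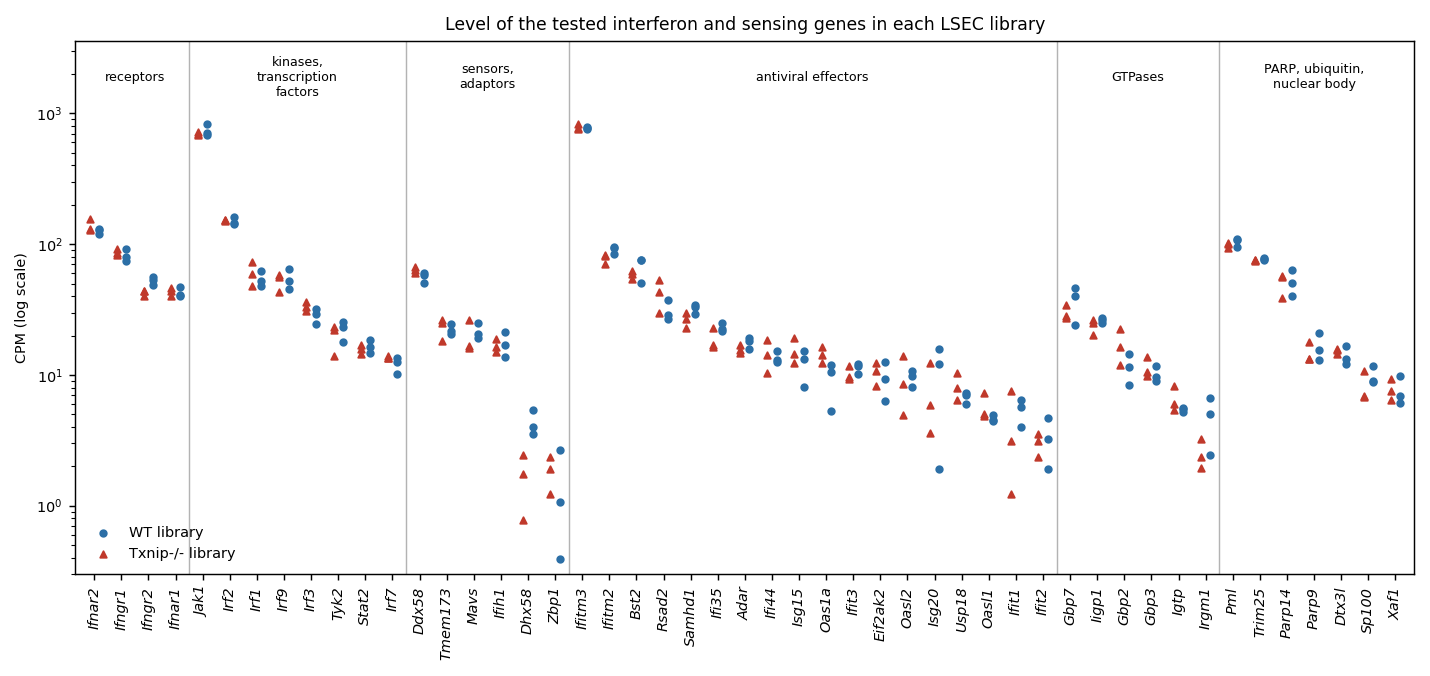
CPM on a log scale (vertical axis) of each tested gene (horizontal axis, by role and by descending level) in the 3 WT libraries (blue circles) and the 3 Txnip-/- libraries (red triangles). Levels run from Zbp1 at 1.598 CPM to Ifitm3 at 783 CPM on average.

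Levels differed far more between genes than between genotypes. Only 5 genes had a mean of 100 CPM or more, namely Ifitm3 (783 CPM), Jak1 (721), Irf2 (152), Ifnar2 (132) and Pml (101). The median gene of the list had 16.95 CPM, below the 23.5 CPM of all tested genes, whereas Ifitm3 and Jak1 lay above 98.9% and 98.8% of them. Interferon-stimulated effectors spanned this whole range, from Ifitm3 and Bst2 (63.1 CPM) over Rsad2 (36.5 CPM) to Isg15 (13.7 CPM), Ifit3 (10.8 CPM) and Ifit1 (4.66 CPM), of which Bst2, Isg15, Ifit3 and Ifit1 were named after their values were seen.

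The ligands of the pathway were nearly absent from the counts. Of 11 interferon genes with a row, 10 had 0 counts in all 6 libraries, and Ifnk, a type I interferon of epithelia, had 6 counts in Txnip-/- replicate 3 and 0 elsewhere (it is named because it was the only one with a count). A count of 0 allows up to 3 counts in a library, and secreted protein was not measured.

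The receptor genes were measured well, at 43.0 to 132 CPM, and 3 of the 4 had estimates above 0. Ifnar2, the signalling chain of the type I receptor (chr16:91372783-91405589), was the most abundant, with 131, 155 and 129 CPM in Txnip-/- and 131, 128 and 120 CPM in WT. Txnip-/- replicate 2 was the highest, and the other 5 libraries overlapped. The estimate was 0.13 on the log2 scale with a 95% interval of -0.09 to 0.34 (adjusted p = 0.702, edgeR). Its partner Ifnar1 had 43.5 ± 2.87 CPM in Txnip-/- and 42.6 ± 3.72 CPM in WT (SD, n = 3), and the ligand-binding chain of the type II receptor, Ifngr1, had 86.7 ± 5.05 and 82.4 ± 8.78 CPM (SD, n = 3), each with overlapping groups.

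Ifngr2, the accessory chain that interferon gamma needs for signalling (chr16:91547072-91565623, next to the type I receptor genes), had 40.2, 43.9 and 43.7 CPM in Txnip-/- and 53.0, 56.6 and 49.0 CPM in WT. Every Txnip-/- library was below every WT library, and the lowest WT value was that of replicate 3. The log2 fold change was -0.31 (SE 0.13, 95% interval -0.58 to -0.04) with an unadjusted p of 0.0266 and an adjusted p of 0.337 by edgeR. It stayed between -0.36 and -0.26 when single libraries were omitted, and in no case did the adjusted p fall under 0.196. The difference thus exceeded the spread of these libraries but did not pass the correction over all genes.

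The receptor of type III interferon, which acts mainly on epithelia, was also looked up. Its specific chain Ifnlr1 had 0, 1 and 2 counts in Txnip-/- and 0 in each WT library. Its shared chain Il10rb, which also serves interleukin 10 family receptors, had 60.9 ± 4.58 CPM in Txnip-/- and 61.8 ± 6.87 CPM in WT (SD, n = 3).

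None of the 8 kinase and transcription factor genes passed either threshold, and all 8 estimates were within 1.3-fold. Jak1, the kinase shared by the type I and type II receptors (chr4:101152367-101265282), had 702, 726 and 683 CPM in Txnip-/- and 704, 682 and 832 CPM in WT. WT replicate 3 was the highest and the remaining libraries interleaved. Its log2 fold change was -0.07 (SE 0.09, 95% interval -0.25 to 0.11, adjusted p = 0.84, edgeR), so a change of 1.3-fold lay outside the interval.

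Irf3, the latent factor that sensors activate to induce interferon (chr7:44997648-45002848), had the estimate farthest from 0 in the group, with 33.2, 31.0 and 36.4 CPM in Txnip-/- and 31.9, 29.2 and 24.6 CPM in WT. WT replicate 1 lay within the Txnip-/- values, so the groups overlapped. The estimated log2 fold change was 0.23 (SE 0.16, 95% interval -0.11 to 0.56, adjusted p = 0.648, edgeR).

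The remaining genes of the group overlapped between genotypes. Irf1 ranged from 48.0 to 72.8 CPM in Txnip-/- and from 48.1 to 62.2 CPM in WT. Irf2, which competes with Irf1 for promoter sites, had 153 ± 1.602 and 150 ± 9.95 CPM (SD, n = 3). Irf7, the amplifier of type I interferon and itself interferon-induced, had 13.8, 13.4 and 13.4 CPM in Txnip-/- and 12.5, 13.5 and 10.2 CPM in WT. The last 500 bases of Irf7 overlap Phrf1 on the opposite strand, and since the use of strand in counting was not stated, reads of the pair may not be separable. For Irf9, the DNA-binding subunit of the interferon complex, the log2 fold change was -0.05, for Stat2 -0.07 and for the kinase Tyk2 -0.17.

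Among sensors and adaptors, the RIG-I-like RNA helicases had estimates of both signs. Ddx58, which encodes RIG-I (chr4:40203773-40239828), was the most abundant, with 59.96, 63.1 and 66.7 CPM in Txnip-/- and 60.6, 58.5 and 50.5 CPM in WT. Txnip-/- replicate 1 fell below WT replicate 1, so the groups overlapped narrowly. The log2 fold change was 0.16 (SE 0.12, 95% interval -0.09 to 0.42, adjusted p = 0.678, edgeR). Ifih1, which encodes MDA5, the sensor of long double-stranded RNA, had 16.6 ± 1.98 and 17.3 ± 3.89 CPM (SD, n = 3).

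Dhx58, the third RIG-I-like receptor (LGP2, chr11:100694884-100704271), which lacks the signalling domains and modulates the other two, had the most negative estimate of the whole list. It had 7, 17 and 23 counts in Txnip-/- and 36, 42 and 51 counts in WT, or 0.782, 1.73 and 2.46 CPM against 3.50, 4.001 and 5.39 CPM. Every Txnip-/- library was below every WT library. The log2 fold change was -1.36 (SE 0.56, 95% interval -2.54 to -0.19) with an unadjusted p of 0.0256 and an adjusted p of 0.332 by edgeR. With single libraries omitted, the estimate ranged from -1.76 to -1.03 and the adjusted p from 0.296 to 0.673. The counts were small, and the difference did not pass the correction.

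The adaptors downstream of these sensors showed no such separation. Mavs, the mitochondrial adaptor of the RNA helicases, had 16.2, 16.7 and 26.3 CPM in Txnip-/- and 20.5, 25.1 and 19.3 CPM in WT. Tmem173, which encodes STING, the adaptor of cytosolic DNA sensing, had 23.2 ± 4.45 and 22.2 ± 1.97 CPM (SD, n = 3). Zbp1, a sensor of Z-form nucleic acid, was the lowest tested gene of the list, with 17, 12 and 22 counts in Txnip-/- and 4, 28 and 10 in WT, and its 95% interval of -1.24 to 2.04 covered more than 2-fold in both directions.

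The antiviral effectors made up the largest group, with 18 of 22 genes tested at 3.14 to 783 CPM, 8 estimates above 0 and 10 below, and a median log2 fold change of -0.09. None was called. Ifitm3, a membrane protein that blocks entry of enveloped viruses (chr7:141009586-141010770), was the most abundant gene of the list, with 830, 763 and 780 CPM in Txnip-/- and 765, 787 and 774 CPM in WT. The WT values lay inside the Txnip-/- range. Its log2 fold change was 0.03 (SE 0.07, 95% interval -0.13 to 0.19, adjusted p = 0.93, edgeR), the narrowest bound of the group. Its sign turned to -0.05 when counts were scaled by library totals alone and to -0.01 without Txnip-/- replicate 1.

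Oas1a, a double-stranded RNA-activated antiviral synthetase (chr5:120896256-120907521), had the highest estimate of the list, with 14.3, 16.3 and 12.3 CPM in Txnip-/- and 5.26, 10.5 and 11.8 CPM in WT. The groups did not overlap, but the gap between the lowest Txnip-/- and the highest WT library was small, and WT replicate 1 was the low value that widened the difference. The log2 fold change was 0.64 (SE 0.29, 95% interval 0.03 to 1.24) with an unadjusted p of 0.0398 and an adjusted p of 0.396 by edgeR. Without WT replicate 1 it was 0.36, and over the omissions of single libraries it did not exceed 0.86. The last 500 bases of Oas1a and its neighbour Oas1g are 98.0% identical, and since multiple alignments were counted, reads of the pair may not be separable. Oas1g had 11.5, 11.9 and 12.1 CPM in Txnip-/- and 6.42, 9.43 and 8.67 CPM in WT.

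Rsad2, which encodes viperin, an enzyme that makes a chain-terminating nucleotide (chr12:26442746-26456452), had 43.4, 29.6 and 53.1 CPM in Txnip-/- and 28.8, 37.2 and 27.0 CPM in WT. Txnip-/- replicates 1 and 3 were above every WT library, whereas replicate 2 fell below WT replicate 2, so the groups overlapped. The log2 fold change was 0.44 (SE 0.19, 95% interval 0.03 to 0.85) with an unadjusted p of 0.0375 and an adjusted p of 0.39 by edgeR. Without Txnip-/- replicate 3 it was 0.23 and without replicate 2 it was 0.64.

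**Figure D5:**
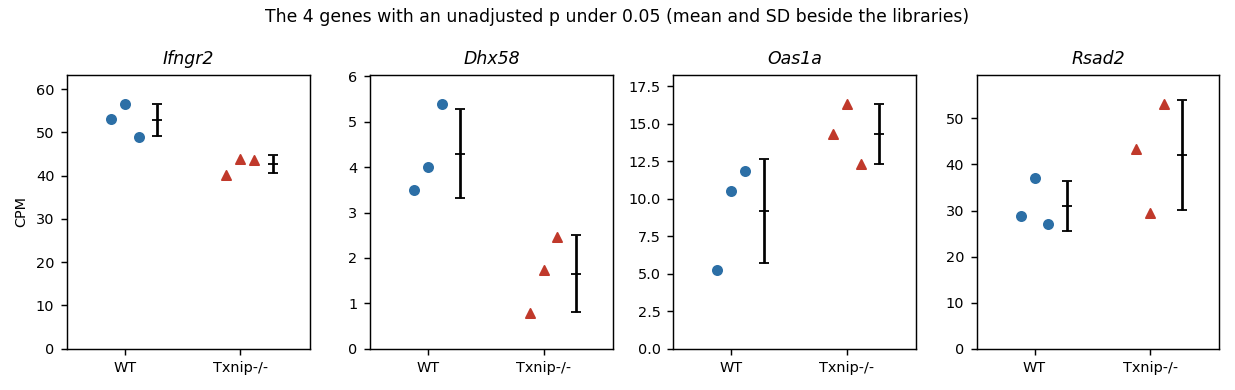
CPM (vertical axes, from 0) of Ifngr2, Dhx58, Oas1a and Rsad2 in each WT (blue circles) and Txnip-/- (red triangles) library, with the mean and SD (n = 3) beside the points. Ifngr2 and Dhx58 are lower and Oas1a higher in Txnip-/- without overlap, Rsad2 overlaps, and none passed the correction over all genes (adjusted p 0.332 to 0.396, edgeR).

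The interferon-stimulated genes Isg15, Ifit3 and Ifit1, named after their values were seen, had estimates of both signs. Isg15, a ubiquitin-like modifier, had 12.3, 19.3 and 14.3 CPM in Txnip-/- and 13.1, 15.2 and 8.04 CPM in WT. Ifit3, an RNA-binding effector, had 9.27, 9.68 and 11.7 CPM in Txnip-/- and 10.2, 12.1 and 11.6 CPM in WT. Ifit1, which binds RNA lacking cap methylation, had 1.23, 7.54 and 3.10 CPM in Txnip-/- and 3.99, 6.38 and 5.71 CPM in WT. The genotypes overlapped for all 3, and the log2 fold changes were 0.33, -0.15 and -0.43.

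Replicates of 1 genotype could differ more than the genotypes did. Isg20, an exonuclease, ranged from 1.90 to 15.7 CPM within WT, a ratio of 8.26 between its highest and lowest library, and had 3.57, 5.91 and 12.4 CPM in Txnip-/-. Ifit1 spread by a ratio of 6.14 within Txnip-/-. The median ratio of the highest to the lowest library over the tested genes of the list was 1.36 in Txnip-/- and 1.299 in WT.

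Ifitm2, a second membrane restriction factor, had 82.4, 80.5 and 69.9 CPM in Txnip-/- and 84.3, 92.7 and 94.3 CPM in WT. The groups did not overlap, and the log2 fold change of -0.22 had an unadjusted p of 0.0606 and an adjusted p of 0.461 by edgeR. Its last 500 bases share stretches of over 95% identity with the loci Gm11951, Gm8865 and Gm45717, so its count may include their reads. Samhd1, which depletes nucleotides needed by viruses, was below every WT library in 2 of 3 Txnip-/- libraries, with 26.8, 29.8 and 22.8 CPM against 34.6, 33.1 and 29.3 CPM. Bst2, the tether that retains budding virus, had 58.6 ± 4.002 CPM in Txnip-/- and 67.6 ± 14.5 CPM in WT (SD, n = 3).

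The remaining tested effectors were Ifi35, Ifi44, Ifit2, Usp18, Oasl1, Oasl2, Eif2ak2 and Adar. Their log2 fold changes ran from -0.30 for Ifi35 to 0.29 for Usp18, the protease that removes Isg15 and dampens receptor signalling. Each overlapped between genotypes. For Eif2ak2, the double-stranded RNA-activated kinase PKR, the estimate was 0.14, and for Adar, the editor of double-stranded RNA, it was -0.16. The last 500 bases of Adar overlap Chrnb2 on the opposite strand.

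Of the 4 untested effectors, Mx1, an interferon-induced dynamin-like GTPase whose allele in C57BL/6 mice is defective, had 0 counts in 5 libraries and 12 in WT replicate 3. Mx2 had 7, 8 and 13 counts in Txnip-/- and 2, 12 and 7 in WT. Oas2 had 0, 0 and 9 counts against 1, 2 and 0, and Oas3 had 4, 2 and 0 against 0, 2 and 13. All 4 were below the filter on low counts. They entered the fits by DESeq2 and without that filter, in which no listed gene was called.

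The 6 interferon-inducible GTPases attack the vacuoles of intracellular pathogens and are chiefly induced by interferon gamma. Gbp7 was the most abundant (chr3:142530342-142550149), with 27.2, 28.4 and 34.0 CPM in Txnip-/- and 46.5, 40.2 and 24.0 CPM in WT. WT replicates 1 and 2 were above all Txnip-/- libraries and WT replicate 3 was below them. The log2 fold change was -0.31 (SE 0.20, 95% interval -0.73 to 0.12, adjusted p = 0.619, edgeR). Without WT replicate 3 the adjusted p was 0.0871, the smallest of any listed gene under any of the settings tried, and against WT replicate 3 alone the log2 fold change was 0.32.

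Irgm1, a regulator of the other immunity-related GTPases and of autophagy (chr11:48861968-48871683), had 21, 32 and 18 counts in Txnip-/- and 69, 53 and 23 in WT, or 2.34, 3.26 and 1.92 CPM against 6.72, 5.05 and 2.43 CPM. As for Gbp7, WT replicates 1 and 2 were above all Txnip-/- libraries. WT replicate 3 lay within the Txnip-/- values, whereas for Gbp7 it lay below them. Its log2 fold change was -0.91 (SE 0.51, 95% interval -1.98 to 0.16, adjusted p = 0.53, edgeR), and against WT replicate 3 alone it was 0.05.

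Gbp2 had an estimate above 0, with 22.3, 11.9 and 16.5 CPM in Txnip-/- and 8.37, 14.6 and 11.4 CPM in WT, and its groups overlapped (log2 fold change 0.56, adjusted p = 0.44, edgeR). The estimates for Gbp3, Igtp and Iigp1 were 0.17, 0.26 and -0.13. Of the 6 genes, of which 5 had a promoter to search and held an ISRE match, 3 had estimates above 0 and 3 below.

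In the last group all 7 tested genes were within 1.3-fold, and none was near either threshold. Pml, the scaffold of the nuclear bodies that bear its name (chr9:58218076-58249786), had 92.7, 101 and 99.9 CPM in Txnip-/- and 94.8, 109 and 110 CPM in WT. The groups overlapped, and the log2 fold change was -0.09 (SE 0.10, 95% interval -0.31 to 0.13, adjusted p = 0.826, edgeR). Sp100, a second component of the same bodies (chr1:85649988-85709998), had 6.81, 10.8 and 6.95 CPM in Txnip-/- and 11.7, 9.05 and 8.88 CPM in WT. Txnip-/- replicate 2 lay within the WT values, and the log2 fold change was -0.27 (SE 0.29, 95% interval -0.87 to 0.34, adjusted p = 0.81, edgeR).

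Trim25, the ubiquitin ligase that acts on RIG-I, had little spread in either genotype, with 74.6, 75.3 and 76.2 CPM in Txnip-/- and 79.0, 77.1 and 75.8 CPM in WT, and its 95% interval ran from -0.26 to 0.18. The ADP-ribosyltransferases Parp9 and Parp14 had log2 fold changes of -0.16 and -0.01. Dtx3l, the ubiquitin ligase partner of Parp9, had 0.12 and the pro-apoptotic Xaf1 had 0.03.

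Genes with and without an ISRE match were compared as a description. The 18 tested genes with a match had a median log2 fold change of 0.03, with 10 estimates above 0 and 8 below, and the 24 tested genes with a promoter but no match had a median of -0.06, with 10 above and 14 below. None was called in either set. Over all tested genes, the listed ones included, 313 held the element, of which 6 (1.92%) were called, with a median log2 fold change of -0.04. Of 8511 tested genes with a promoter and no match, again with the listed ones included, 103 (1.21%) were called.

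A further 127 genes of the same pathway, comprising ligands, other sensors, feedback regulators and other interferon-stimulated genes, gave a similar distribution. Of these, 86 were tested, 40 had estimates above 0 and 46 below, and the median log2 fold change was -0.02. By edgeR 0 were called, DESeq2 called 1, and 5 (5.81%, against 11.5% of all tested genes) had an unadjusted p under 0.05, of which 1 was higher and 4 were lower. The libraries of the genotypes did not overlap for 5 genes that were higher (5.81%, against 8.43% of all tested genes) and 6 that were lower (6.98%, against 8.94%).

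Gvin1, a very large interferon-inducible GTPase, came closest to a call, with 98.1, 122 and 128 CPM in Txnip-/- and 85.6, 84.8 and 86.3 CPM in WT. Every Txnip-/- library was above every WT library. Its log2 fold change was 0.44 (SE 0.11, 95% interval 0.20 to 0.68) with an adjusted p of 0.0627 by edgeR and 0.0291 by DESeq2. Its last 500 bases are identical to those of Gm4070, so the reads cannot be assigned to 1 of the pair.

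The genes lower in Txnip-/- at the unadjusted threshold did not pass the correction by edgeR, and 3 of them are described here. Ifi30, a lysosomal thiol reductase of antigen processing that is high in macrophages, had 40.8, 36.0 and 32.0 CPM in Txnip-/- and 47.6, 52.2 and 46.4 CPM in WT, without overlap (log2 fold change -0.43, adjusted p = 0.187, edgeR). Ptpn6, a phosphatase of hematopoietic cells, had 3.01, 2.24 and 0.214 CPM against 5.74, 5.62 and 4.02 CPM, without overlap (log2 fold change -1.49, adjusted p = 0.356, edgeR). Lgals9, a galectin, had 112, 152 and 135 CPM against 156, 183 and 142 CPM with overlapping groups (log2 fold change -0.27, adjusted p = 0.392, edgeR). The macrophage markers were lower in the same Txnip-/- libraries, at 42.5% of the WT sum, and their part in these values was not tested.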

How the data were processed

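The deposited values are whole-number read counts per gene that the authors made, without normalization, from single-end QuantSeq 3′ mRNA-Seq reads aligned with Bowtie2 (mm10 per the labels). Unique and multiple alignments were counted with Bedtools. Versions, annotation and the use of strand were not given in the sources used here. All 6 libraries were grouped by genotype from their labels. Of 23282 rows, 11583 passed filterByExpr and were fitted with edgeR 4.0.16 (R 4.3.3) as TMM-scaled quasi-likelihood models without covariates, and p-values were Benjamini-Hochberg adjusted over all of them. A call required a change of over 1.3-fold with an adjusted p under 0.05. CPM used TMM-scaled totals. Intervals are 95% and symmetric around the estimate. Each SE was derived from the log2 fold change and the F statistic of the edgeR test, so the intervals are approximate. DESeq2 1.42.0 and limma 3.58.1 served as alternatives, along with other scalings, filters and left-out libraries. Promoters were RefSeq GRCm38.p6, gene positions GENCODE M21 (GRCm38), and near-identical 3′ ends were sought with BLAST 2.17.0 (at least 75 bases at 95% identity). Genes described in full were those with an unadjusted p under 0.05 and, in each role group, the most abundant and the one with the largest fold change. The members and lists were chosen with earlier results of these data known. The scripts were tested on simulated counts. With 9147764 to 10193952 counts per library, intervals were wider for genes under 10 CPM. A related gene that met the rule for description is not reported here.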

Additional observations from a re-analysis of the deposited data

How the results depend on the processing

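No listed gene was called under 17 other settings, in which the smallest adjusted p was 0.0871, and between 0 and 4 genes were lower and 0 and 3 higher at an unadjusted p under 0.05. Related genes called numbered 1 by DESeq2, 1 without a filter on low counts and 1 at an adjusted p under 0.1, each time Gvin1, and 0 to 3 with single libraries left out (1 without Txnip-/- replicate 1, with Gvin1 at an adjusted p of 0.0295, and 3 without WT replicate 3, among them Gvin1 at 0.0447, edgeR). Scaling by totals alone moved the median over all tested genes to -0.08 and that of the list to -0.12, with 7 listed genes lower without overlap (14.3%, against 13.6% of all tested genes) and Ifitm3 reversed to -0.053. With WT replicates 1 and 2 left out together, an alternative chosen after seeing the data that leaves WT as a single library, 18 listed genes were higher and 16 lower without overlap (35.3% and 31.4%, against 27.1% and 28.1% of all tested genes), the list median was -0.0078, and Gbp7 (0.32) and Irgm1 (0.047) reversed. With single libraries left out, the genes without overlap numbered 2 to 8 higher (4% to 16%, against 11.6% to 15.3% of all tested genes) and 4 to 7 lower (8% to 14.3%, against 12.3% to 16.4%), the list median ran from -0.042 to 0.024, Ifitm3 from -0.0068 (without Txnip-/- replicate 1) to 0.055 and Jak1 from -0.13 to 0.022 (without WT replicate 3). Over all tested genes, calls were 59 higher and 108 lower, 85 and 129 by DESeq2, 106 and 195 without a filter, 110 and 191 without WT replicate 3, and 35 and 145 by totals alone. The cause was not tested. Same-numbered replicates did not deviate together (correlations -0.03, 0.02 and -0.05), so they gave no sign of a pairing by number. Whether same-numbered libraries shared a preparation was not stated. A replicate block gave 0 listed genes called, a smallest adjusted p of 0.416 among them, a list median of -0.04 and 40 genes higher and 68 lower over all. Groups of 3 libraries were not tested for outlying libraries. Genes under 10 CPM had wider intervals, and counting error was not separated from the spread between libraries.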
